A study of Mus musculus with 2 samples.

Results

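Mir126a and Mir126b, in the locus of Egfl7, and Mir139, in the locus of Pde2a, are microRNA genes that lie inside genes expressed in the blood vessel lining. They were chosen by their symbols in the GENCODE M21 annotation and matched by Ensembl gene identifier, and all 3 were found among the 2202 genes of the tables. The series holds 2 microRNA libraries of gastrocnemius, the large calf muscle, from male mice aged 2 months. The mice were B6CASTF1/J hybrids, whose parents are a C57BL/6J and a wild-derived CAST/EiJ mouse. The libraries form 1 group, biological replicates 1 and 2, with no treated, mutant or control group beside it. The labels give each library a biosample and a male number of its own, under a donor entry that both share, so the spread between them is that of these samples and may in part be technical.

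MicroRNAs are short RNAs cut from a hairpin precursor, and they guide silencing of messenger RNAs through their seed, bases 2 to 8. Egfl7 encodes a secreted protein of the vessel wall, and miR-126 from its locus is a classical microRNA of endothelial cells, where it promotes signalling by vascular endothelial growth factor by repressing the inhibitors Spred1 and Pik3r2. Pde2a encodes a phosphodiesterase that breaks down cyclic AMP and cyclic GMP, which is found in endothelium and in neurons among other cells. Its microRNA, miR-139, has been studied mainly as a brake on growth and migration of cells.

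Coordinates are 1-based on mm10. Mir126a (ENSMUSG00000065540.1) lies at chr2:26591357-26591429 on the plus strand, and Mir126b (ENSMUSG00000105799.1) at chr2:26591363-26591420 on the minus strand. Mir139 (ENSMUSG00000065446.1) lies at chr7:101475376-101475443 on the plus strand. All 3 were matched in the RefSeq sequence table (build GRCm38.p6, the same assembly). The hairpins are printed 5′ to 3′ to show how the first 2 share their DNA, with the mature products listed in that table in capitals.
Mir126a: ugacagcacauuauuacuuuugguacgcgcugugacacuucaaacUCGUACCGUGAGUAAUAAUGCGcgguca
Mir126b: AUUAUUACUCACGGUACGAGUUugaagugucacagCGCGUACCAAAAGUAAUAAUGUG
Mir139: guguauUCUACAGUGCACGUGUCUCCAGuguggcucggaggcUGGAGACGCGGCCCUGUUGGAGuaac

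The 58 bases of Mir126b are the exact reverse complement of bases 7 to 64 of the 73-base hairpin of Mir126a. A hairpin is close to its own reverse complement, so the 2 genes could in principle yield look-alike products. Read in the same sense, the longest run the 2 hairpins share is 10 bases, aguaauaaug. It lies at positions 11 to 20 of miR-126a-3p and 12 to 21 of miR-126b-3p. A shorter run, cguacc, also occurs in both of these products, so they are alike in more than the longest run. Another run found in both hairpins, auuauuacu, holds the seed of miR-126b-5p. The folding energy predicted by RNAfold was -31.2 kcal/mol for Mir126a, -19.3 for Mir126b and -35.6 for Mir139.

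The mature products are given below with the seed in capitals, since the seed sets which messages a microRNA can pair with. miR-126a-5p, the other arm of Mir126a, is not among the listed products, so it is named only and its seed was not compared.
miR-126a-3p: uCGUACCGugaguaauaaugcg
miR-126b-5p: aUUAUUACucacgguacgaguu
miR-126b-3p: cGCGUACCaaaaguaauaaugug
miR-139-5p: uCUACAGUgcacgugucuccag
miR-139-3p: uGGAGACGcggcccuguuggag

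No 2 of these 5 products share a whole seed, but the seeds of miR-126a-3p and miR-126b-3p both hold cguacc, at shifted positions. None of the 5 seeds is the seed of a product of another gene among the 1738 mature entries of the table. miR-126b-5p lies across from miR-126a-3p on the other strand, where they cover 19 of the same genomic bases. The longest run shared with any other microRNA gene of the tables was 11 bases for Mir126a, 12 for Mir126b and 11 for Mir139. Of 141767 GENCODE transcripts, the sequence of miR-126a-3p occurred in 2, Mir126a itself and the Egfl7 transcript Egfl7-206. Each of the other 4 products occurred in the transcript of its own gene and in no other. Copies outside annotated transcripts were not searched for.

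Both host genes run on the same strand as their microRNA, and Mir126b runs against Egfl7. Egfl7 (chr2:26580014-26593120) has 19 annotated transcripts, and Mir126a lies in an intron of 8 of them, in an exon of 1 and outside 10. In the protein-coding transcript Egfl7-201 it lies in intron 7, a short intron of 600 bases, 293 bases after the exon before it and 234 bases ahead of the next. The exon that holds it belongs to Egfl7-206, a transcript annotated as retaining this intron, whose exon 4 spans 665 bases. Pde2a (chr7:101421691-101512827) has 12 transcripts, and Mir139 lies in an intron of 10, in an exon of 0 and outside 2. In Pde2a-201 this is intron 2, of 29902 bases, with 23907 bases before the microRNA and 5927 after it. No further microRNA gene of the tables lies within 10000 bases of either locus: the nearest are Mir6996, 121238 bases from Mir126a, and Gm22655, 405741 bases from Mir139, both at 0 counts in both libraries.

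**Figure D1:**
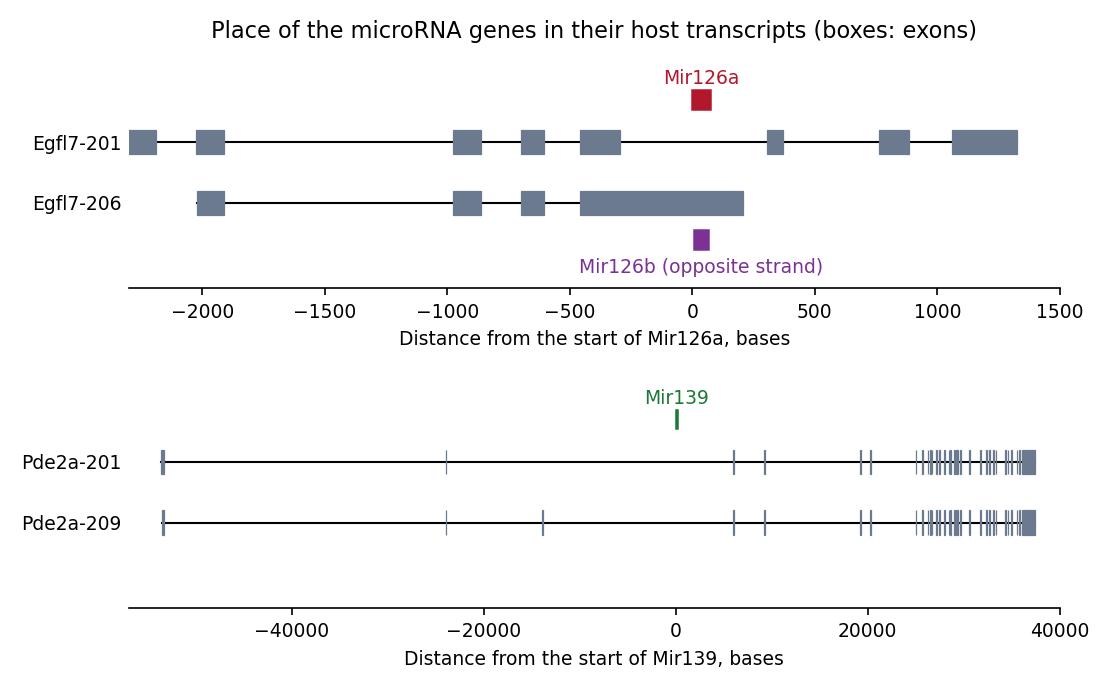
Exons (grey boxes) and introns (lines) of 2 transcripts of Egfl7, drawn for the stretch around Mir126a, and of 2 transcripts of Pde2a, with distance in bases from the start of the microRNA gene. Mir126a and Mir126b lie in the 600-base intron of Egfl7-201 and inside the last exon of Egfl7-206, and Mir139 lies within a long intron of Pde2a.

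The gene counts summed to 638779 in replicate 1 and 2272132 in replicate 2, and every level below is a count per 1000000 of these (CPM), not divided by length. The mature products printed above are 22 or 23 bases long. Reads that match several places, 75.2% and 74.4% of all reads, are not in the gene counts. Genes of striated muscle summed to 22890 and 52175 CPM, most of it from Mir206, a microRNA of skeletal muscle. Genes for miR-1 and miR-133, which also mark muscle, had low counts, the highest being Mir1a-2 at 261 and 269 CPM. They have near-identical copies, and reads that match several copies are not counted. Their counts therefore need not give the level of these microRNAs.

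Mir126a, the main endothelial microRNA gene of the set, was among the most abundant genes of both libraries. It had 51924 counts in replicate 1 and 294918 in replicate 2, which are 81286 and 129798 CPM (mean 105542 ± 34303, SD, n = 2). Its share of the gene counts was 8.13% in replicate 1 (exact Clopper-Pearson 95% interval 8.06 to 8.20%) and 13.0% in replicate 2 (12.9 to 13.0%). These intervals cover counting error only. Set against counting error alone, 81.4% of the 59 genes with a mean of 1000 CPM or more differed between the libraries. It stood at rank 3 in replicate 1, after Mir143 (120222 CPM), and at rank 2 in replicate 2, after Mir378a (139630 CPM). In the order of means it lay between Mir378a, at 163450 ± 33686 CPM, and Mir143, at 99814 ± 28860. Mir378a lies in the gene of a metabolic coactivator, Ppargc1b, and Mir143 is abundant in smooth muscle. Mir378a was above Mir126a in both libraries, at 187270 and 139630 CPM, while Mir143 and Mir126a changed order between them. Since this is bulk tissue, a greater share of endothelial cells and more of the RNA per cell cannot be told apart.

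Mir139 was lower than Mir126a in both libraries and was still among the abundant genes. It had 4473 and 19004 counts, which are 7002 and 8364 CPM (mean 7683 ± 963, SD, n = 2). Its share of counts was 0.700% in replicate 1 (exact Clopper-Pearson 95% interval 0.680 to 0.721%) and 0.836% in replicate 2 (0.825 to 0.848%). The gene stood at rank 23 in replicate 1 and rank 21 in replicate 2. Its neighbours in the order of means were Mir322, a microRNA linked to vessels and to muscle differentiation, at 9002 ± 277 CPM, and Mir195a, of the miR-15 family, at 7600 ± 806 CPM. Mir195a and Mir139 do not differ beyond their spread, and they changed order between the libraries, with Mir195a at 7031 CPM in replicate 1 and 8170 in replicate 2. Mir322 was above Mir139 in both libraries.

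Mir126b, on the strand opposite to Mir126a, was at or near 0. It had 0 counts in replicate 1, where 3 counts would be 4.70 CPM, and 1 count in replicate 2, or 0.440 CPM (exact 95% interval 0.0111 to 2.45 CPM). Of the reads of the pair in replicate 2, 0.000339% lay on its strand (8.58e-06 to 0.00189%), and the limit that a count of 0 allows in replicate 1 is 0.00578%. With Mir126b set to 3 counts in replicate 1, Mir126a was 17308-fold higher than Mir126b in that library. The exact 95% interval for 0 counts reaches 5.77 CPM, above the 4.70 CPM of 3 counts. The limit for replicate 1 is therefore less strict than the exact interval used for replicate 2. In replicate 2 the ratio was 294918 to 1, with a counting interval of 52932 to 11648678. These intervals cover counting error only, since PCR copies of 1 molecule are not marked as such.

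**Figure D2:**
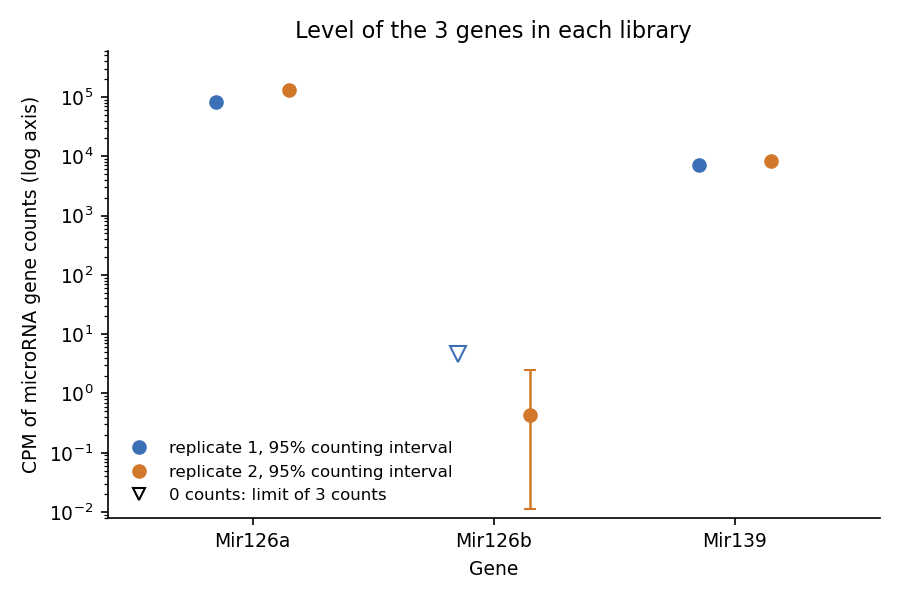
Level of each gene in CPM on a log axis, with a point per library and its 95% counting interval, and an open triangle at the limit of 3 counts where a library had 0. Mir126a lies at 81286 and 129798 CPM and Mir139 at 7002 and 8364, while Mir126b had 1 count in all.

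**Figure D3:**
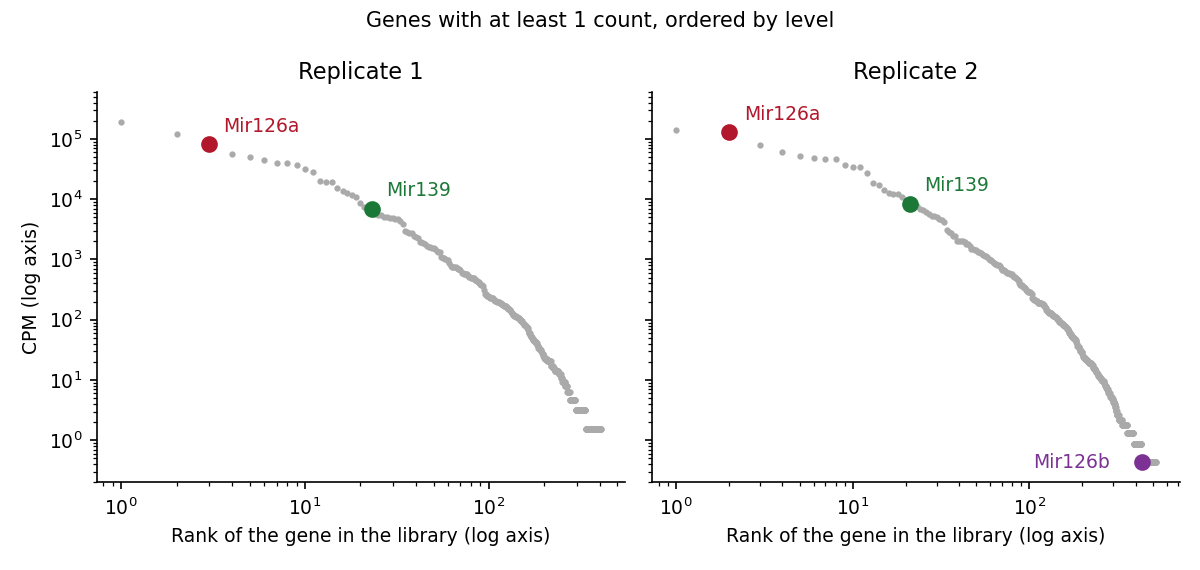
All genes with at least 1 count in replicate 1 (left) and replicate 2 (right), ordered by CPM, both axes logarithmic. Mir126a stands at ranks 3 and 2 and Mir139 at ranks 23 and 21, and the single count of Mir126b places it among the lowest detected genes of replicate 2.

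Together the 3 genes held 8.83% of the assigned counts in replicate 1 and 13.8% in replicate 2 (mean 11.3% ± 3.53, SD, n = 2). Mir126a gave 92.1% and 93.9% of these counts, and Mir139 nearly all of the rest. Within a library there were 11.6 counts of Mir126a for each count of Mir139 in replicate 1 and 15.5 in replicate 2 (mean 13.6 ± 2.77). This ratio does not depend on the total by which counts are divided. The gene counts do not separate the 5p from the 3p product, so the arm from which these reads came was not analysed here.

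The tables carry 3 counts per gene, which ignore the strand, require the strand of the gene or require the other strand, and the Mir126 locus shows how much this choice decides. On the same strand Mir126a had 51924 and 294918 counts. With strand ignored it had 0 and 2, because a read that overlaps genes on both strands then belongs to neither. On the opposite strand Mir126a had 0 counts and 1 count, the number Mir126b had on its own strand. Conversely, Mir126b had 51924 and 294916 counts on its opposite strand. Mir139, which has no partner on the other strand, had 4473 and 19004 counts both with and without regard to strand and 0 on the opposite strand.

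The tables hold 32 pairs of microRNA genes that overlap on opposite strands, and 18 of them have a gene at a mean of 100 CPM or more. In 12 of these 18 the partner had no count in either library, and in 6, the Mir126 pair included, it had at least 1. Among the 18, the largest share of a partner was 1.26% of the pair, for Mir3107 across from Mir486 (9 and 31 counts against 568 and 2575). Mir126a had the second highest mean of the 18, after Mir378a, whose partner Gm25301 was at 0. Counts of the Mir126 pair lost when strand is ignored numbered 51924 and 294917. They made up 27.1% and 43.3% of the ambiguous reads of the 2 tables, and all ambiguous reads together, 191677 and 680731, equalled the counts lost by the 32 pairs.

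**Figure D4:**
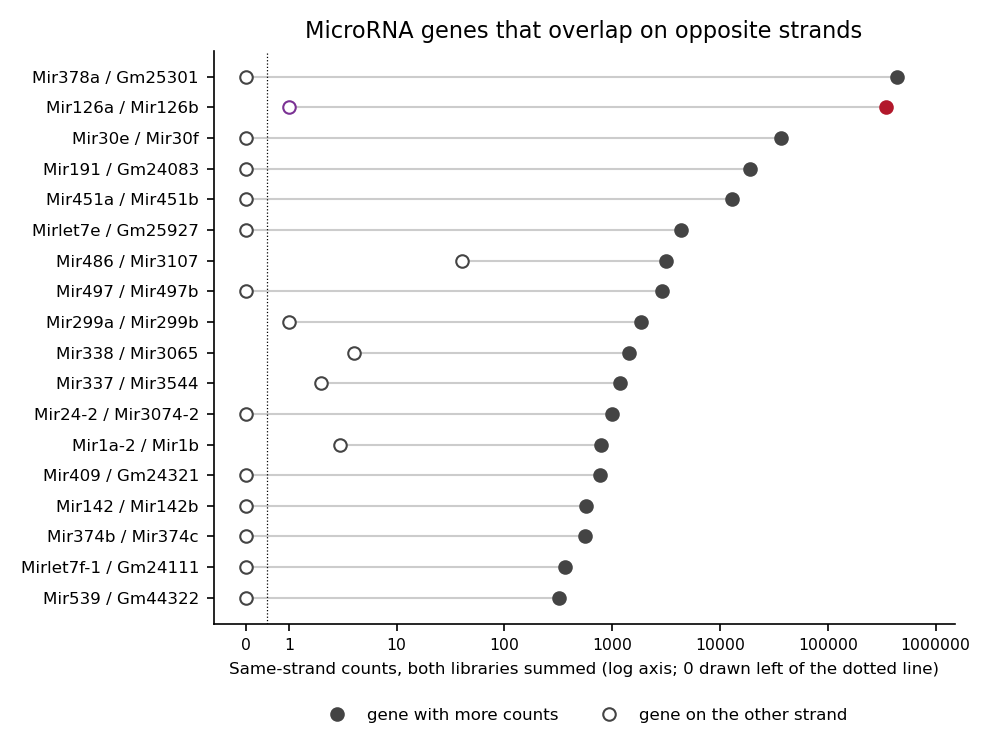
Same-strand counts summed over both libraries (log axis, with 0 drawn left of the dotted line) for the 18 pairs with a gene at a mean of 100 CPM or more, filled for the gene with more counts and open for the gene on the other strand. Mir126a (red) and Mir126b (purple, 1 count) show a wide gap, and 12 of the 18 partners lie at 0.

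Between the 2 libraries, Mir126a and Mir139 were both higher in replicate 2. Mir126a was 1.60-fold higher (interval of counting error 1.58 to 1.61), a log2 ratio of 0.68. Mir139 was 1.19-fold higher (1.16 to 1.23), a log2 ratio of 0.26 with a Benjamini-Hochberg adjusted p of 1.61e-26 by the exact two-sided binomial test over 311 genes. This test compares 2 libraries with counting error and is no test of mice or conditions. Mir126b, with 1 count in all, was not tested. By the same test 40.5% of the 311 genes differed in either direction, and 23.2% of the 311 were higher in replicate 2. Among the 59 genes with a mean of 1000 CPM or more, 81.4% differed and 49.2% were higher. Both tested members were called higher, which beside these shares is not a result particular to them. With TMM scaling the calls over all genes were 57 higher and 64 lower, in place of 72 and 54.

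The difference of Mir126a was among the larger ones of the abundant genes, and that of Mir139 lay near their middle. Among the 59 genes at 1000 CPM or more, whose median absolute log2 ratio was 0.23, Mir126a ranked 10 by absolute ratio and 5 by signed ratio. Mir139 ranked 28 and 14. Over all 311 tested genes, many with few counts, the absolute ratios ranked 88 and 197. As a biological coefficient of variation over the 311 genes, edgeR put the spread above counting error at 27.6%. With that spread counted as noise, edgeR's exact test gave an unadjusted p of 0.237 for Mir126a and 0.653 for Mir139, both with an adjusted p of 1. It called 0.643% of the 311 genes, and 20 had an unadjusted p under 0.05. That test sets 1 library against 1, with the noise taken from the same difference.

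**Figure D5:**
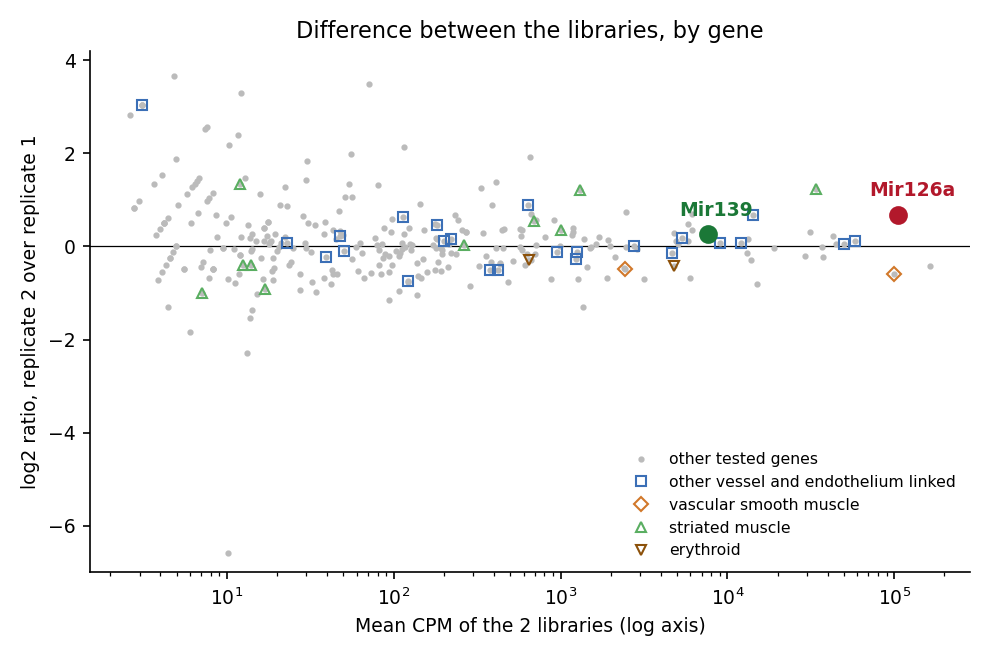
Log2 ratio of replicate 2 over replicate 1 against mean CPM (log axis) for the 311 tested genes, with Mir126a and Mir139 as large points and the vessel, smooth muscle, striated muscle and erythroid lists as open symbols. Mir126a (0.68) and Mir139 (0.26) lie above 0, and Mir143 and Mir145a of the smooth muscle list lie below it.

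Other microRNA genes linked to vessels and endothelium moved in both directions. Of 30 such genes 24 were tested, and 9 were higher in replicate 2, 5 were lower and 10 did not pass. Over all 311 tested genes, 23.2% were higher and 40.5% differed in either direction. Their median log2 ratio was 0.07, against 0.04 over all tested genes. The list summed to 155276 CPM in replicate 1 and 169225 in replicate 2. Its leading genes were Mir23a, at 55736 and 60529 CPM, Mir23b, at 49380 and 51141, and Mir100, at 10993 and 17432. Mir23a and Mir23b give near-identical products. Reads that match both places are not in the gene counts, and how the other reads were assigned between them is uncertain. Several of these genes are also expressed in muscle fibres or fibroblasts, and the list does not isolate the endothelium.

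The 2 vascular smooth muscle genes went the other way from Mir126a. They lie within 10000 bases of each other on the minus strand of chromosome 18, so they may not be separate observations. Mir143 fell from 120222 CPM in replicate 1 to 79407 in replicate 2, and Mir145a from 2846 to 2044, both called lower by the binomial test. Both erythroid genes were also lower, Mir451a at 5465 and 4110 CPM and Mir144 at 711 and 577. They too lie that close together, on the plus strand of chromosome 11. Beside these, 54 of all 311 tested genes were called lower, and 19 of the 59 with a mean of 1000 CPM or more. Of 10 genes of striated muscle, 4 were higher in replicate 2, 0 were lower and 6 did not pass, beside 23.2% of all tested genes called higher. Its leading genes were Mir206 at 20325 and 48078 CPM, Mir499 at 784 and 1819 and Mir486 at 889 and 1133. Among those that did not pass, the log2 ratio was -0.41 for Mir1a-1, 0.04 for Mir1a-2, -0.39 for Mir133a-1, -1.01 for Mir133a-2, -0.91 for Mir133b and 1.34 for Mir208a. Of 4 leukocyte and platelet genes, 2 were higher, 1 was lower and 1 did not pass, beside 40.5% of all tested genes that differed in either direction. They were led by Mir155 at 1065 and 1314 CPM, Mir150 at 1068 and 1260 and Mir142 at 246 and 180. Whether the makeup of the 2 tissue pieces had a part in the difference of Mir126a was not tested.

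With 2 libraries, likeness of pattern comes down to 1 number, the log2 ratio, and is given as a description. Among the 59 genes with a mean of 1000 CPM or more, those nearest to Mir126a were Mir100, with a 1.59-fold higher level in replicate 2, Mir127, with 1.63-fold, and Mir99b, with 1.67-fold. Mir100 and Mir99b belong to the miR-99 family, and Mir127 lies in an imprinted cluster. Nearest to Mir139 were Mir150, a microRNA of lymphocytes (1.18-fold), Mirlet7f-2 of the let-7 family (1.23-fold) and Mir195a (1.16-fold).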

How the data were processed

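MicroRNA libraries were read from tables of raw counts per microRNA gene, 1 per library, deposited by the authors. Texts deposited beside them name mm10 and GENCODE M21. Aligner and counter were not given in the sources used here. The files have no header: from the values, the first count column ignores strand, the second is the strand of the gene and the third the opposite strand, and the second was used. Rows that name no gene (82.8% and 83.9% of reads) stayed out of library sizes.

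CPM was taken over gene rows. Shares carry exact Clopper-Pearson 95% intervals, and a count of 0 allows up to 3 counts. An exact binomial test, conditional on the gene's total, was run for genes whose counts summed to at least 10. It was checked on data simulated with counting error only, without the further spread between these libraries. Benjamini-Hochberg adjusted p-values under 0.05 were called. Log2 ratios used a prior count of 0.5. Alternatives were the unstranded column, other denominators, TMM and DESeq2 scaling, other prior counts and floors, edgeR's exact test, and each library left out. The members, lists and tests were chosen with earlier results of these data known. Named genes are the members, their neighbours in level, the 3 nearest in ratio, up to 3 leading genes of each list, and pairs on opposite strands at 100 CPM or more. The striated muscle genes that did not pass were named after their values were seen. Software was Python 3.11.15, pandas 2.3.3, numpy 2.4.6, scipy 1.17.1, matplotlib 3.10.9, R 4.3.3, edgeR 4.0.16, DESeq2 1.42.0 and RNAfold 2.7.2.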

Additional observations from a re-analysis of the deposited data

Results flagged for a closer look

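Counts appeared on the strand opposite to Mir126b, in a column that the levels do not use. They numbered 51924 in replicate 1 and 294916 in replicate 2, far above the limit of 3 counts. The first number equals the same-strand count of Mir126a, and the second is 2 below it. The hairpin of Mir126a has 15 bases outside Mir126b, and the unstranded column gives Mir126a 0 counts and 2 counts.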

How the results depend on the processing

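Both ratios kept their direction under the alternatives that gave a value, between 0.58 and 0.68 on the log2 scale for Mir126a and between 0.16 and 0.27 for Mir139. Both passed the binomial test each time. By the exact test of edgeR, run with 1 dispersion for all genes, the ratios of 0.68 and 0.26 did not pass, and 2 genes were called in place of 126, since the spread between the libraries then counts as noise. With strand ignored, Mir126a had a mean of 0.628 CPM and no ratio between libraries could be given, the 3 genes held 1.10% of counts, and there were 5.26e-05 counts of Mir126a per count of Mir139, while Mir139 rose to 10973 CPM in a smaller total. With all reads as the denominator, Mir126a was at 17479 per 1000000, Mir139 at 1278 and the 3 genes at 1.88%. With Mir378a left out of the total, Mir139 was at 9169 CPM. Leaving out 1 library gives the value of the other. The count of 0 for Mir126b is limited by the depth of replicate 1, and reads that match several places are not in these counts.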

Other observations

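Counts of Mir126a and Mir139 can be set against lists of other cell types within the same library. There were 0.661 counts of Mir126a per count of the vascular smooth muscle genes in replicate 1 and 1.59 in replicate 2, and for Mir139 there were 0.0569 and 0.103. Mir143 gave 97.7% and 97.5% of the smooth muscle counts, so these are nearly ratios to that gene alone. Per count of the striated muscle genes, Mir126a stood at 3.55 and 2.49 and Mir139 at 0.306 and 0.160. The striated muscle sum is mostly Mir206, 88.8% of its counts in replicate 1 and 92.1% in replicate 2, so these are close to ratios to 1 gene. Reads that match several places are left out of the sum. Within it, Mir1a-1 had only 9 and 25 counts, Mir133a-1 had 10 and 28, and Mir133a-2 had 6 and 11. The ratios to this sum do not show that Mir126a exceeded the striated muscle microRNAs as a whole. Gene by gene, the ratio of replicate 2 over replicate 1 was higher for Mir126a than for 7 of the 10 striated muscle genes, and higher for Mir139 than for 5 of the 10. Those 5 were Mir1a-1, Mir1a-2, Mir133a-1, Mir133a-2 and Mir133b, and none of them passed the binomial test. The 4 that passed had log2 ratios of 1.24 (Mir206), 1.21 (Mir499), 0.54 (Mir208b) and 0.35 (Mir486). All 4 lay above Mir139, at 0.26, and Mir206 and Mir499 also lay above Mir126a, at 0.68. The erythroid sum is likewise mostly Mir451a, 88.5% of its counts in replicate 1 and 87.7% in replicate 2. Per count of the erythroid genes, Mir451a and Mir144, Mir126a stood at 13.2 and 27.7 and Mir139 at 1.13 and 1.78. The counts per count of a list are values of 2 libraries with no test.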
